A study of Mus musculus with 26 samples.

Results

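The genes of oxidative phosphorylation were followed through azoxymethane (AOM) and dextran sulfate sodium (DSS) treatment of the mouse colon, a chemical model of inflammation-driven tumours, with and without the liver X receptor (LXR) agonist GW3965 in the diet. The members were selected by gene symbol alone, among protein-coding genes of the GRCm38 annotation: the *Ndufa*, *Ndufb*, *Ndufc*, *Ndufs* and *Ndufv* families, *Sdha* to *Sdhd*, the *Uqcr* genes, *Cox4* to *Cox8*, the *Atp5* genes and the protein-coding genes of mitochondrial DNA. The rule gave 107 members of 35975 genes, 94 nuclear and 13 mitochondrial. This set was chosen with earlier results of these data known. After a filter on low counts, 91 nuclear and 13 mitochondrial members were tested among 17063 genes, and *Cox7b2*, *Cox8c* and a second gene labelled *Atp5o* were not. *Cox8c* was at 0 counts in all 26 samples.

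Oxidative phosphorylation takes place at the inner mitochondrial membrane. Complex I (NADH dehydrogenase) and complex II (succinate dehydrogenase, also an enzyme of the TCA cycle) pass electrons to ubiquinone, complex III (cytochrome *bc1*) passes them to cytochrome *c* and complex IV (cytochrome *c* oxidase) to oxygen, while complex V (ATP synthase) uses the resulting proton gradient to make ATP. Mitochondrial DNA encodes core subunits of every complex but complex II, and the nucleus encodes all other subunits, so the machine is built from both genomes. Differentiated colonocytes depend on this pathway to oxidise butyrate, the fatty acid that gut bacteria make from fibre.

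All mice were male wild-type C57BL/6J animals from Taconic, about 10 weeks old at the start, fed a standard or a GW3965 diet. Treated mice received 10 mg/kg AOM and entered a schedule of 3 cycles of 7 days of DSS, and polyadenylated RNA of colon tissue was sequenced 22, 43 or 70 days after AOM, with 3 samples for each diet and day. The paper states that biopsies for RNA were taken from distal colon, matching the tumour areas. It reports no macroscopic tumours at day 22 and tumours nearly only on the standard diet at day 43. At day 70 it reports tumours on both diets, to a different extent. Untreated mice, called day 0, had been on either diet for 22 or 43 days without AOM or DSS and gave 4 samples for each diet, 2 for each duration. Day 70 therefore had no untreated samples of the same diet duration. A general statement in the study says that bulk RNA samples were pools of several animals, while the labels do not say so. The paper's figure legend for these data gives 3 to 4 mice at each timepoint. The sources thus differ, and a sample may not be a single mouse. Bulk tissue was measured, so fewer cells of a type and less RNA per cell cannot be told apart. Day 0, 22 and 43 samples of a diet came from 1 cage per group, and untreated and treated mice from different cages. Cage therefore cannot be told apart from diet or treatment there. The 6 samples of day 70 came from 6 cages, none shared with untreated mice. For day 70 against day 0, cage and treatment thus cannot be told apart either. One untreated sample, GW3965 day 0 replicate 2-43d, has conflicting labels (its diet field says standard, its title GW3965) and was placed by the title.

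Libraries held 18195345 to 41522204 estimated counts, with a median of 20424701. Day 43 stood apart in RNA quality. Its RNA integrity numbers (RIN, 10 for intact RNA) were 2.6 to 9.3 against 9.1 to 10 on all other days, and its counts on 88 ribosomal protein genes were 10.0% to 18.6% of the total against 3.96% to 10.7%. GW3965 day 70 replicate 1 also stood apart: the summed level of 15 skeletal muscle markers was 30985 CPM (counts scaled to the same normalised library size) there and 32.7 to 1013 in the other 25 samples. Fitted changes below come from 1 edgeR model of all 26 samples with the ribosomal protein percentage as a covariate, so they can differ from a ratio of CPM. A member is called changed at a false discovery rate (FDR) under 0.05 over all 17063 genes.

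Most messages of mitochondrial DNA stood above those of all nuclear subunits per length. In untreated colon, levels in TPM, which corrects for transcript length, were 19782 ± 5951 for *mt-Co1* (SD, n = 8), the catalytic core of complex IV, then 16934 ± 4845 for *mt-Co2*, 16185 ± 4596 for *mt-Co3* and 15192 ± 4715 for *mt-Atp6*. These top levels lay within 1 SD of their neighbours in the order. The lowest of the 13 was *mt-Nd5*, a proton-pumping subunit of complex I, at 2017 ± 703 TPM, and it alone lay below the highest nuclear members. The highest nuclear members at day 0 were *Cox6a1* at 2391 ± 300 TPM, *Cox4i1* at 2231 ± 163, *Atp5b*, the catalytic subunit of ATP synthase, at 2156 ± 280 and *Cox8a* at 2134 ± 122, again within 1 SD of each other. Over all samples the highest nuclear member of each complex was *Ndufa1* in complex I (750 TPM), *Sdhd* in complex II, *Uqcr10* in complex III (1568 TPM), *Cox4i1* in complex IV (2022 TPM) and *Atp5e* in complex V (2210 TPM).

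Tissue isoforms separated by orders of magnitude. The widely expressed *Cox4i1* stood at 2231 TPM in untreated colon, and *Cox4i2*, its oxygen-responsive alternative, at 4.34 ± 1.47 TPM. *Cox6a2*, the heart and skeletal muscle form of *Cox6a1*, stood at 0.636 ± 0.434 TPM, and *Ndufa4l2*, a hypoxia-inducible relative of the complex IV component *Ndufa4*, at 4.43 ± 1.59 TPM. Counts of 8 members could be shared with a near-identical copy that itself held at least 1% of the member's counts. Among them *Atp5g2* had *Gm10175* at 453% of its own count and *Ndufb4* had *Ndufb4c* at 118%, so the levels of both members are uncertain. Of the mitochondrial genes, *mt-Co1* had *Gm29216* at 13.7% of its count, *mt-Co2* had *Gm28661* at 2.62% and *mt-Co3* had *Gm28437* at 1.55%. Their levels, changes and ratios carry the same uncertainty, at smaller shares of the count.

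**Figure D1:**
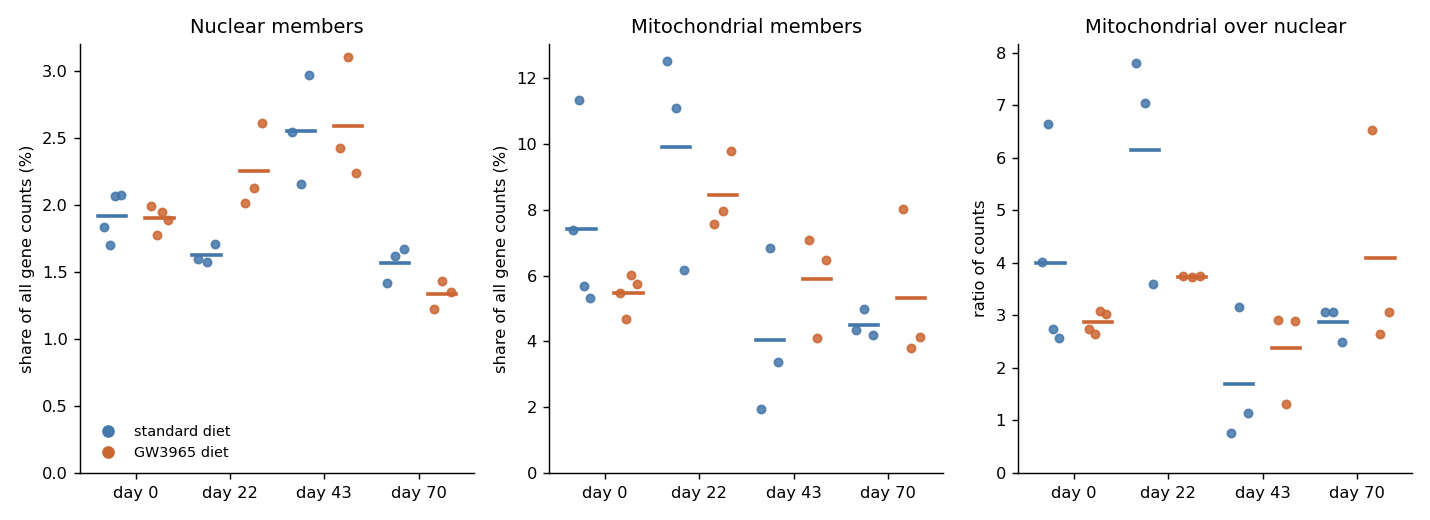
Share of all gene counts on the 94 nuclear members (left), on the 13 mitochondrial members (middle) and their ratio (right) in each of 26 samples, by day and diet, with the group mean as a line. The nuclear share was 1.71% to 2.07% at day 0 and 1.23% to 1.68% at day 70, while the mitochondrial share ranged from 1.94% to 12.5% over all samples.

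As a share of all counts, the nuclear members had their lowest levels at day 70. They took 1.92% ± 0.18 of the counts on the standard diet and 1.90% ± 0.09 on GW3965 at day 0 (SD, n = 4 each). At day 22 the standard diet samples stood at 1.60%, 1.57% and 1.71% and the GW3965 samples at 2.02%, 2.13% and 2.62%, with no overlap. At day 43 all 6 samples (2.16% to 3.11%) were above all 8 untreated samples (1.71% to 2.07%), and at day 70 all 6 (1.23% to 1.68%) were below them. The mean share at day 70 was 0.761 times that at day 0 by counts and 0.758 times by TPM. At day 43 the ratio was 1.35 by counts but 1.07 by TPM, which divides by transcript length.

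The mitochondrial share varied more between samples of a group. It was 5.32% to 11.3% in the 4 untreated samples on the standard diet and 4.69% to 6.02% in the 4 on GW3965. At day 22 it was 12.5%, 11.1% and 6.16% on the standard diet and 7.56%, 7.95% and 9.79% on GW3965, so the diets overlapped. At day 70, 5 samples held 3.81% to 4.97% and GW3965 replicate 1, the sample with skeletal muscle messages, 8.02%. Mitochondrial counts were 3.73 to 3.75 times the nuclear counts in all 3 GW3965 samples of day 22, against 3.60, 7.05 and 7.82 times on the standard diet.

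The promoters of 3 members are shown because their genes carry contrasting results: *Ndufb4* had the smallest p among members lower at day 70, *Ndufb6* was higher on GW3965 at day 22, and *Cox8b* is a muscle isoform that stood out in a single sample. Each runs from 250 bases before to 50 after the RefSeq start on GRCm38.p6, minus strand, 5′ to 3′ along the gene: *Ndufb4* at chr16:37654319-37654618, *Ndufb6* at chr4:40279372-40279671 and *Cox8b* at chr7:140900397-140900696. Capitals mark letters that match a searched motif on either strand.
Ndufb4: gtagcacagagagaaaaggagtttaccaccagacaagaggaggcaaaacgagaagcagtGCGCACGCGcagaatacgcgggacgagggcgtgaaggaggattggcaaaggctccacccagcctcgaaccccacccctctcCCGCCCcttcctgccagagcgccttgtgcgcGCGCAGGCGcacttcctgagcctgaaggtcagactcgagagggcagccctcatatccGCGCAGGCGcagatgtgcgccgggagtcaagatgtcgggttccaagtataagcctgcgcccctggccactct
Ndufb6: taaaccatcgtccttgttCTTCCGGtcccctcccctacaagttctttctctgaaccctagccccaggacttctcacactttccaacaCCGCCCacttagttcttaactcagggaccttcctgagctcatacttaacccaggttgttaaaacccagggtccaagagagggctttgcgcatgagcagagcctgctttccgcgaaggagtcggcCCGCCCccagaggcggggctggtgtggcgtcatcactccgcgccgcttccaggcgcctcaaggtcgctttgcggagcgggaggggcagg
Cox8b: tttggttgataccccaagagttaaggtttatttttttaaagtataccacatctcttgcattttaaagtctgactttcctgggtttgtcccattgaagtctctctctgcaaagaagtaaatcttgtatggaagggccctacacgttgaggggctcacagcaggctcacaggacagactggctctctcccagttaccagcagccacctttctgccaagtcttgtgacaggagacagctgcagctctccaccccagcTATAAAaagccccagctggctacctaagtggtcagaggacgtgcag
*Ndufb4* had 3 matches to the letters GCGCANGCG and 1 to GGGCGG, *Ndufb6* had 1 to CCGGAAG and 2 to GGGCGG, and *Cox8b* had only TATAAA.

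RefSeq promoters were found for 74 of 93 nuclear symbols, 79 promoters in all. Those without an entry included *Ndufaf6*, *Ndufa2*, *Ndufa4l2*, *Ndufb9*, *Ndufs1*, *Sdhc*, *Uqcrb*, *Uqcrc2*, *Uqcrq*, *Cox4i1*, *Cox4i2*, *Cox6a2*, *Cox6c*, *Cox8c*, *Atp5a1*, *Atp5f1*, *Atp5mpl* and *Atp5s*. GCGCANGCG, the core of the NRF1 motif, was in 29.1% of the 79 promoters found and in 6.25% of 32851 promoters of the same length. CCGGAAG, an ETS core bound by NRF2/GABP, was in 22.8% against 8.86%, AAGATGGC (YY1) in 12.7% against 2.75%, and TCAAGGTCA (estrogen-related receptors) in 2.53% against 0.423%. The TCAAGGTCA share was 2 of 79 promoters, with a 95% interval of 0.308% to 8.85% that held the share of all promoters. GGGCGG (SP) was in 43.0% against 35.7% and TATAAA in 10.1% against 13.6%. Both strands were searched and overlapping matches of different motifs were all counted. NRF1 and GABP are long known as regulators of respiratory genes, and these letter matches are descriptions, not binding sites.

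The first question was how AOM–DSS changed these genes over time, whatever the diet. At day 70, nuclear genes of all 5 complexes were lower. Of 91 nuclear members, 50 fell and 3 rose, beside 18.5% of all genes called lower and 24.8% called higher (edgeR, FDR under 0.05, 6 samples against 8). The median fitted change of the nuclear members was -0.29 on the log2 scale, beside 0.07 for all genes tested. In 29 of 91, every day 70 sample was below every untreated sample, against 5.36% of all genes. With a separate ribosomal slope in each group, 0 of the members were called, beside 2 genes higher and 2 lower of all 17063. The fit without any ribosomal term kept the nuclear median negative, at -0.37.

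**Figure D2:**
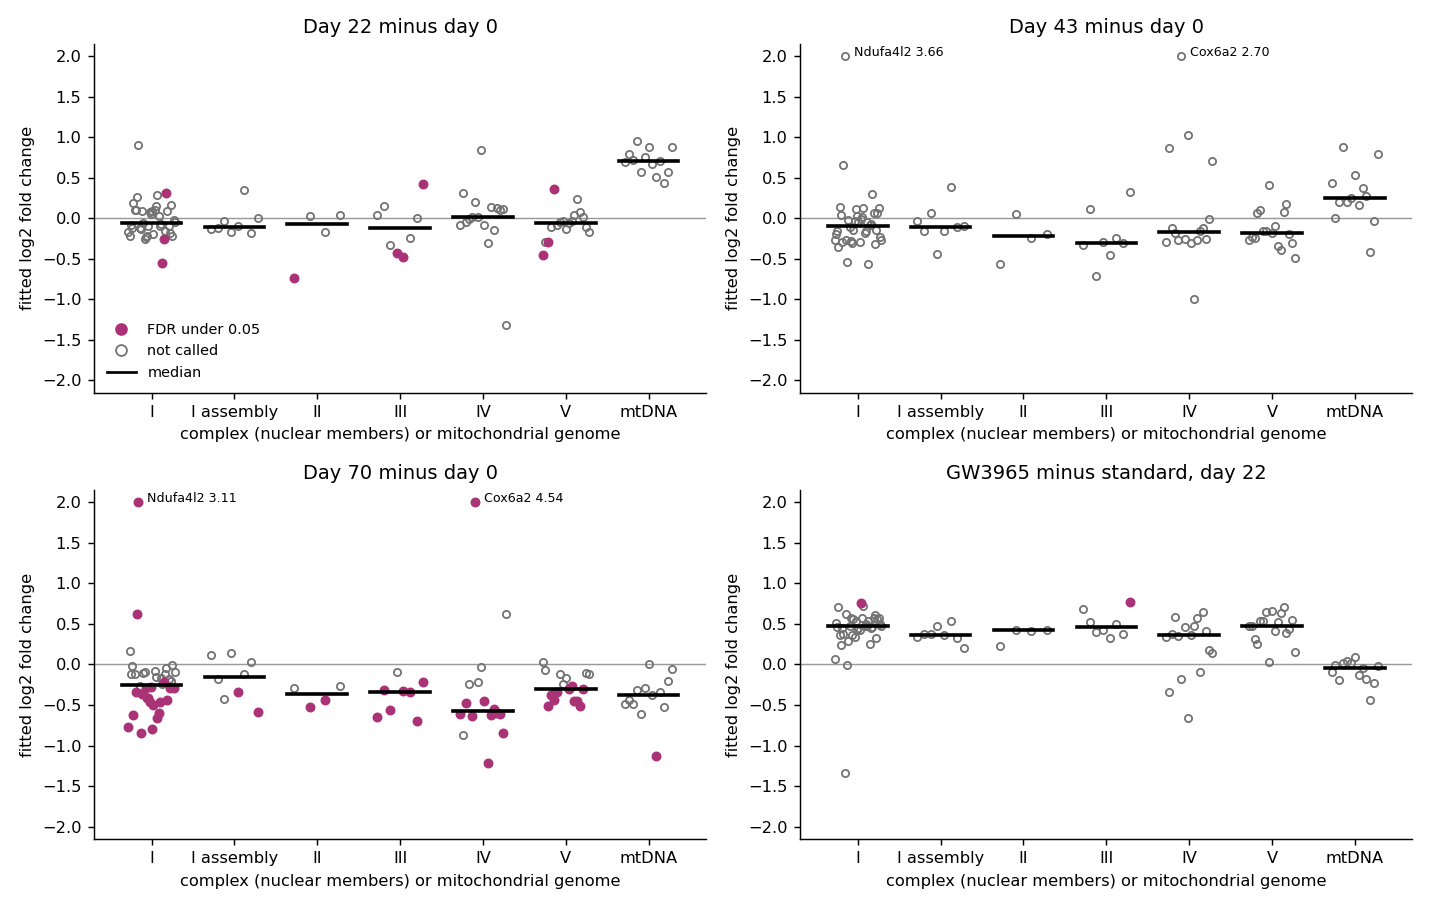
Fitted log2 fold change (vertical axis, held at 2 with the value printed where larger) of each tested member, by complex for nuclear members and together for mitochondrial DNA, in 4 comparisons. Filled points passed FDR under 0.05 and black lines are medians, which were -0.57 for complex IV at day 70 and 0.71 for mitochondrial DNA at day 22.

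In complex I, 19 of 38 nuclear subunits fell at day 70 and 2 rose. *Ndufb4*, an accessory subunit of the membrane arm, had a lowest, median and highest CPM of 21.5, 26.01 and 40.3 at day 70 and of 43.4, 54.3 and 67.8 at day 0. All day 70 samples were below the untreated range, and the fitted change was -0.80 (SE 0.10, FDR = 7.14e-06, edgeR). Its near-identical copy *Ndufb4c* fell by 0.69 (SE 0.14). *Ndufa1*, essential for assembly of the complex, went from 106, 126 and 140 CPM to 56.8, 67.5 and 83.0, without overlap (-0.77, SE 0.11). *Ndufb8*, at -0.66 (SE 0.10), and the assembly factor *Ndufaf8*, at -0.58 (SE 0.09), were the next of smallest p. Among the 8 assembly factors of the *Ndufaf* family, 2 fell and 0 rose.

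Complexes II and III followed. In complex II, *Sdhb*, the iron–sulfur subunit, fell by 0.53 (SE 0.09) and *Sdhc*, a membrane anchor, by 0.44 (SE 0.09). The catalytic *Sdha* (-0.29, SE 0.15) and the other anchor *Sdhd* (-0.27, SE 0.14) did not pass. In complex III, 7 of 8 members fell. *Uqcrh*, the hinge protein at cytochrome *c1*, had 132, 185 and 265 CPM at day 70 against 290, 356 and 378 at day 0 (lowest, median and highest), again with no overlap (-0.70, SE 0.11). *Uqcr10*, its most abundant member, fell by 0.64 (SE 0.10).

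Complex IV had the lowest median, -0.57 over 16 nuclear members, with 10 lower and 1 higher. *Cox4i1* had 413, 555 and 703 CPM at day 70 (lowest, median and highest) and 759, 926 and 1078 at day 0, a change of -0.61 (SE 0.10). *Cox8a* fell by 0.85 (SE 0.15), *Cox6a1* by 0.63 (SE 0.16), *Cox7a2* by 0.63 (SE 0.12) and *Cox7a2l*, a supercomplex assembly factor, by 0.55 (SE 0.11). *Cox6b1* (-0.22, SE 0.11) and *Cox6b2* (-0.03, SE 0.32), *Cox4i2* (-0.87, SE 0.38) and *Cox8b* (0.62, SE 0.80) did not pass. In complex V, 10 of 17 fell, among them *Atp5e* by 0.44 (SE 0.09). The *c*-ring genes *Atp5g1* (-0.11, SE 0.12), *Atp5g2* (-0.25, SE 0.17) and *Atp5g3* (-0.17, SE 0.11) did not pass.

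Only *Ndufa4*, *Ndufa4l2* and *Cox6a2* rose at day 70 among the members. *Ndufa4l2* had 1.09, 2.34 and 3.45 CPM at day 0 and 1.55, 13.7 and 87.9 at day 70 (lowest, median and highest), with 5 of 6 samples above the untreated range, and its change was 3.11 (SE 0.58, FDR = 0.000277, edgeR). *Ndufa4* changed by 0.62 (SE 0.15), with samples from 98.8 to 267 CPM at day 70 that overlapped the untreated 123 to 169, and it did not pass without the ribosomal term or with a slope in each group. By symbol both *Ndufa4* genes were counted with complex I. *Cox6a2* rested on GW3965 replicate 1, at 62.5 CPM while the other 5 samples had 0.0526 to 3.18. Without that sample its change was 1.09 and no longer passed, against 4.54 (SE 1.01) with it. *Cox7a1*, another muscle isoform, fell by 1.22 (SE 0.28) and had 31.6 CPM in the same sample against 7.52 to 12.9 in the other 5.

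Of 13 mitochondrial genes, 12 had negative changes at day 70 with a median of -0.38, and *mt-Nd3* passed, at -1.13 (SE 0.28, FDR = 0.00291, edgeR). It had 282, 384 and 695 CPM at day 70 and 660, 794 and 1965 at day 0, with the highest day 70 sample inside the untreated range. Relative to the other mitochondrial genes it was lower too, at 0.809% to 1.01% of mitochondrial counts against 1.34% to 1.80%. *mt-Co1* changed by -0.48 (SE 0.28) and did not pass.

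For other genes of mitochondrial and fuel metabolism at day 70, the counts stand beside 18.5% of all genes lower and 24.8% higher. Of 19 genes of fatty acid oxidation and ketogenesis, 13 fell and 1 rose, with *Acsm3* at -1.92, *Bdh1* at -0.69 and *Acadl*, the riser, at 0.73. Of 21 TCA cycle and pyruvate entry genes 8 fell and 0 rose, led by the pyruvate carrier subunit *Mpc1* at -0.65. Of 23 glycolysis genes 8 rose and 1 fell, with the lactate exporter *Slc16a3* at 2.86 and hexokinase *Hk2* at 1.58. Of 20 regulators of mitochondrial biogenesis 6 fell and 3 rose, with *Esrrg* at -1.92 and *Esrra* at -0.65, and of 37 other assembly factors of the chain 12 fell and 4 rose. Of 22 electron carriers and inner membrane transporters 3 fell and 2 rose.

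Cell markers moved with these changes. Of 12 differentiated colonocyte markers 10 fell and 2 rose, and their summed level was 196 to 1648 CPM at day 70 against 2676 to 6082 at day 0. All 11 smooth muscle markers fell (1979 to 9016 CPM against 6798 to 29458), while 13 of 13 markers of stratified epithelium rose (25.7 to 29778 CPM against 8.87 to 18.1). For skeletal muscle, 14 of 15 markers were called higher, but the sums at day 70 were 30985 and 1013 CPM in GW3965 replicate 1 and standard replicate 2 and 32.7 to 235 in the other 4 samples, of which 3 were below the untreated 179 to 348. The summed level of 13 general colon epithelium markers, 3616 to 23645 CPM, overlapped the untreated 9900 to 18281. Goblet cell markers summed to 667 to 3586 CPM against 3470 to 8352, and 8 of 9 markers of enteric neurons and glia fell. Their part in the changes of the respiratory genes was not tested.

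At day 22, all 13 mitochondrial genes had positive changes, with a median of 0.71, while the nuclear median was -0.05. The 13 genes move together with the mitochondrial share of a sample. Changes of 1 sign in all 13, here or in other comparisons, are therefore not 13 separate results. The log2 ratio of that share, day 22 to day 0, was 0.51 by counts and 0.23 by TPM. The SD of the log2 share by counts within groups was 0.485. None of the 13 was called by edgeR (8 had an unadjusted p under 0.05, against 19.2% of all genes called higher on that rule). DESeq2 called 2 of them, beside 2435 genes higher and 1793 lower of all 17063. *mt-Co2* had the largest change, 0.95 (SE 0.37, FDR = 0.0717), followed by *mt-Nd1* at 0.88 (SE 0.33) and *mt-Nd6*, the gene of the light strand, at 0.88 (SE 0.35). *mt-Co1* had 19950, 30760 and 45360 CPM at day 22 and 14350, 18620 and 38760 at day 0 (lowest, median and highest), an overlap. The remaining genes lay between 0.44 for *mt-Nd4l* and 0.80 for *mt-Atp8*.

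Nuclear members changed in both directions at day 22, with 3 higher and 7 lower, beside 13.3% and 6.59% of all genes. *Sdha*, the flavoprotein of succinate dehydrogenase, had 138, 185 and 216 CPM at day 22 and 266, 336 and 398 at day 0. All 6 samples were below all 8 untreated samples, and the change was -0.73 (SE 0.16, FDR = 0.00282, edgeR). *Ndufs1* (-0.55, SE 0.13), the largest subunit of complex I, *Uqcrc1* (-0.42, SE 0.12) and *Uqcrc2* (-0.47, SE 0.14), the core proteins of complex III, and *Atp5a1* (-0.45, SE 0.13), the alpha subunit of ATP synthase, were lower, as was *Atp5c1*. *Uqcrq* (0.43, SE 0.09), *Atp5e* (0.36, SE 0.10) and *Ndufs4* (0.32, SE 0.09), which all encode small subunits, were higher. RIN was 10 in all 8 untreated samples and 9.1 to 10 at day 22. At day 43, of lowest RIN, median CPM was below day 0 for *Sdha* (127), *Ndufs1* (58.4), *Uqcrc1* (113), *Uqcrc2* (293) and *Atp5a1* (361). It was above for *Uqcrq* (928), *Atp5e* (1336) and *Ndufs4* (205), but also for *Atp5c1* (533). The part of RNA integrity was not tested. *Sdhb* (0.03, SE 0.10), *Sdhc* (-0.16, SE 0.10) and *Sdhd* (0.04, SE 0.15) did not pass. *Ndufs4* lost its call without standard day 22 replicate 3, GW3965 day 22 replicate 1 or GW3965 day 0 replicate 2-43d. The fit without the ribosomal term called 19 members, beside 3225 genes higher and 2161 lower of all 17063. The fit with a slope in each group called 0 members and 0 of all genes.

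Of 21 TCA cycle and pyruvate entry genes 10 fell and 0 rose at day 22, beside 6.59% and 13.3% of all genes, with fumarase *Fh1* at -0.49 and pyruvate dehydrogenase *Pdha1* at -0.64, and of 19 fatty acid oxidation genes 13 fell and 1 rose. Electron carriers gave 5 lower of 22, assembly factors 2 lower of 37 and glycolysis 1 higher and 1 lower of 23. Of 20 biogenesis regulators 5 fell, among them *Ppargc1a*, the PGC-1 alpha coactivator, at -1.24 and *Lrpprc*, which stabilises mitochondrial messages, at -0.62, and *Slirp*, its partner, rose by 0.38. All 8 leukocyte markers rose, and their summed level was 857 to 1518 CPM at day 22 against 194 to 499 at day 0, with no overlap. B lineage markers rose too, 6 of 8, and 5 of 12 differentiated colonocyte markers fell. Their part in the changes of members was not tested.

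**Figure D3:**
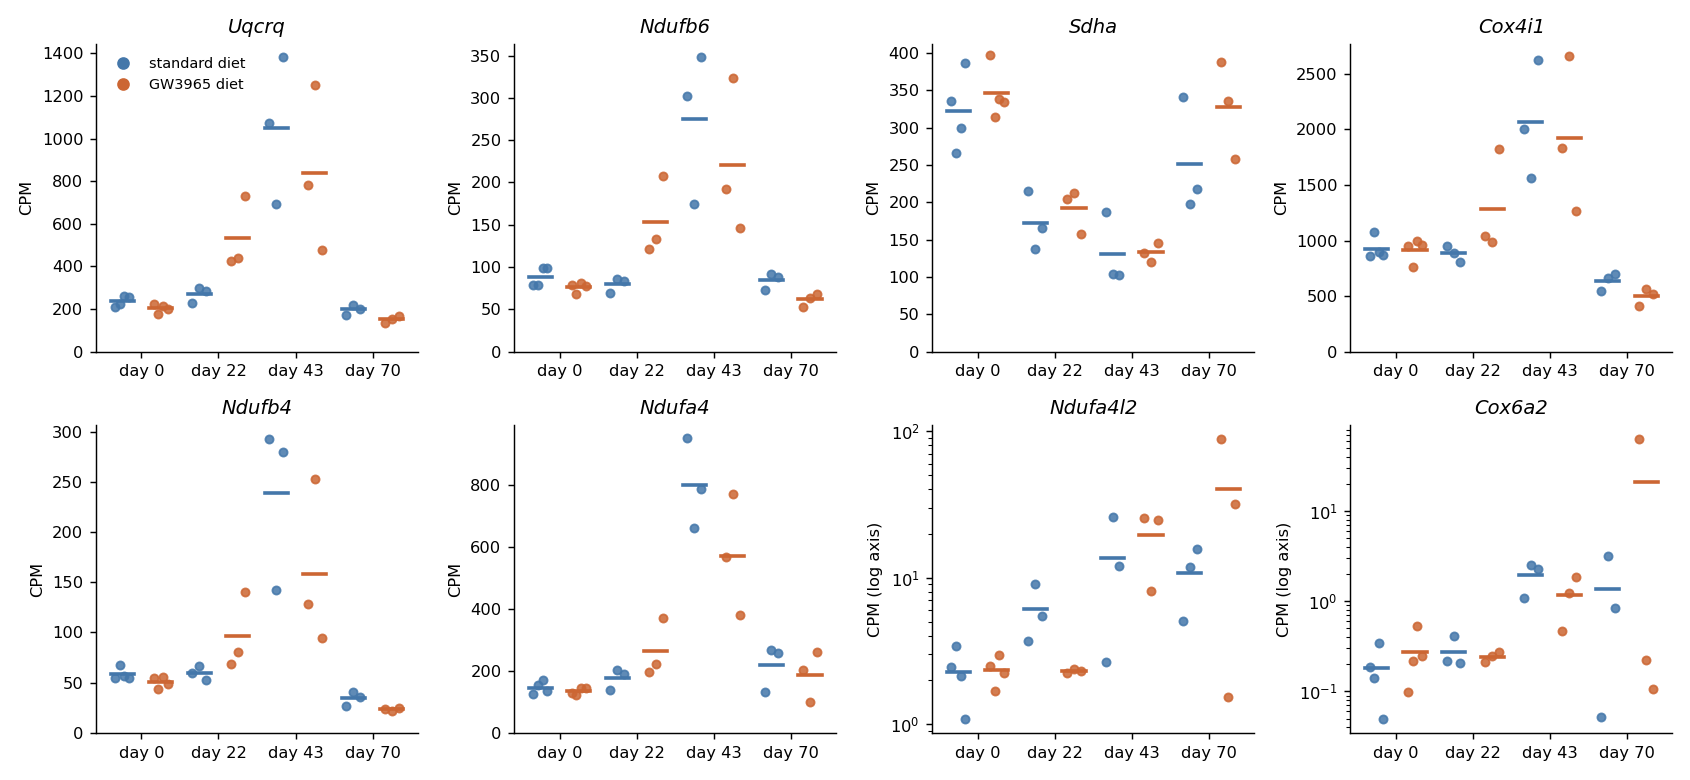
CPM of 8 members in each sample by day and diet, with the group mean as a line (linear axes from 0, log axes for *Ndufa4l2* and *Cox6a2*). *Uqcrq* and *Ndufb6* separated the diets at day 22, *Sdha* was lower at day 22 than in all untreated samples, and *Cox6a2* at day 70 reached 62.5 CPM in a single sample.

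Day 43 gave opposite answers with and without the ribosomal term. By CPM, 53 of 91 nuclear members were higher in every day 43 sample than in every untreated sample, beside 18.8% of all genes. *Atp5e* was at 483, 1336 and 2160 CPM (lowest, median and highest) against 188, 231 and 255 at day 0. In the fit with the ribosomal percentage, 0 members were called by edgeR, beside 0.598% of all genes, with 2 at an unadjusted p under 0.05 (1927 of all 17063 genes) and 0 by DESeq2, and the nuclear median was -0.15. Without that term 85 members were called and the nuclear median was 0.92, beside 6088 genes higher and 4930 lower of all 17063. With RIN as the covariate 70 were called and it was 0.76, beside 4970 higher and 4033 lower. The median of all genes was 0.11 and 0.09 in these fits. *Ndufa4l2* (3.66, SE 1.31, FDR = 0.246) and *Uqcrb* (-0.71, SE 0.28, FDR = 0.314) had the smallest p with the ribosomal term.

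The fitted slope on the ribosomal percentage was positive for 80 of 91 nuclear members, with a median of 0.11 log2 units per percentage point, and for 2 of 13 mitochondrial members, with a median of -0.07. Over all genes tested the median was near 0, at -0.0014.

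The composition of mitochondrial messages differed in the samples of lowest RNA integrity. *mt-Co3* counts were 0.267 to 0.356 times those of *mt-Co1* in the 12 samples of RIN 10, 0.295 to 0.509 times in the 9 of RIN 9 to under 10, and 0.442 to 2.29 times in the 5 samples of RIN under 9, so the last 2 ranges overlapped. Standard day 43 replicate 1, of RIN 2.6, had the ratio of 2.29 and held 1.94% of its counts on mitochondrial genes, the lowest of all samples. GW3965 day 43 replicate 2, of RIN 6.8, had a ratio of 1.07. Day 43 samples of RIN 8.4, 8 and 7.8 had 0.717, 0.535 and 0.442, not in the order of RIN. *mt-Atp8* counts were 0.0072 to 0.0219 times those of *mt-Atp6* in the same 5 samples and 0.0257 to 0.0415 times in the other 21. All 5 samples of RIN under 9 were from day 43, so low RNA integrity and that day cannot be told apart.

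**Figure D4:**
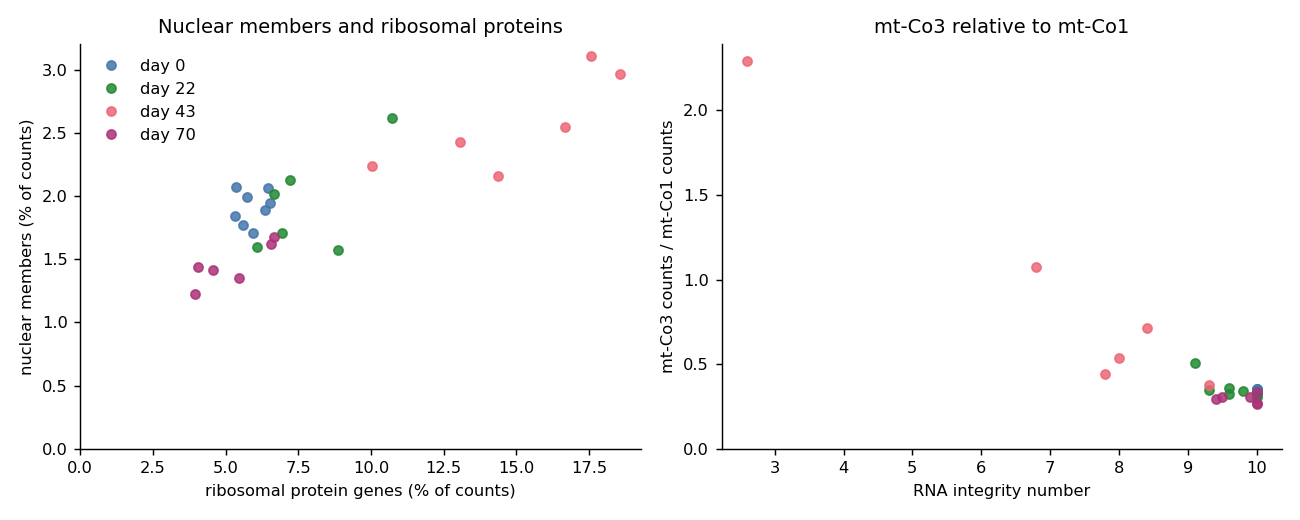
Left, share of counts on nuclear members against share on ribosomal protein genes, and right, ratio of *mt-Co3* to *mt-Co1* counts against RNA integrity number, for 26 samples coloured by day. Day 43 samples lay at 10.0% to 18.6% ribosomal protein counts, and the ratio rose to 2.29 in the sample of RIN 2.6.

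The second question was whether the GW3965 diet changed these genes. In untreated mice it did not detectably. No member was called at day 0 by edgeR or DESeq2, beside 0.0293% of all genes by edgeR, and 3 had an unadjusted p under 0.05 (331 of all 17063 genes). The nuclear median was -0.04. *Uqcrq* (-0.29, SE 0.11, FDR = 1) and *Ndufb6* (-0.26, SE 0.11, FDR = 1) had the smallest p. The mitochondrial median was -0.44, with all 13 changes negative, and the untreated standard diet samples included the 11.3% sample.

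At day 22, 85 of 91 nuclear members had positive fitted changes on GW3965, of which 2 passed, with a median of 0.45, beside -0.01 for all genes tested. All GW3965 samples exceeded all standard diet samples in 72 of 91 nuclear members and 0 of 13 mitochondrial members, against 12.1% of all genes. At an unadjusted p under 0.05, 66 were higher, beside 5.21% of all genes. The 2 that passed the FDR threshold stand beside 0.0879% of all genes. DESeq2 called 33 members, beside 172 genes higher and 133 lower of the 16070 to which it gave an FDR. Without the ribosomal term 0 passed, beside 9 genes higher and 4 lower of all. With RIN in its place 0 passed, beside 16 and 12. The mitochondrial median was -0.04, with 4 positive changes of 13.

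*Uqcrq*, a small subunit of complex III (chr11:53427922-53430831, minus strand), and *Ndufb6*, an accessory subunit of the complex I membrane arm, were the called members. *Uqcrq* had 427, 439 and 733 CPM on GW3965 and 229, 299 and 284 CPM on the standard diet at day 22. The lowest GW3965 sample was above the highest standard diet sample, and the change was 0.77 (SE 0.13, FDR = 0.0145, edgeR). *Ndufb6* had 121, 133 and 207 CPM on GW3965 and 69.8, 85.8 and 83.6 on the standard diet, also apart (0.76, SE 0.13, FDR = 0.0164). GW3965 replicate 3 was highest in both, and had a RIN of 9.1 and 10.7% ribosomal protein counts, against 6.06% to 8.87% on the standard diet and 6.67% and 7.20% in the other GW3965 samples. RIN at day 22 was 9.6, 9.3 and 9.1 on GW3965 and 10, 9.6 and 9.8 on the standard diet. No GW3965 sample was thus above a standard diet sample in RIN, and the part of RNA integrity in the diet difference was not tested.

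The complexes had medians of one sign at day 22, which were not tested against each other. The median was 0.48 in complex I, 0.37 among its assembly factors, 0.42 in complex II, 0.46 in complex III, 0.36 in complex IV and 0.48 in complex V. *Sdhb* had 231, 240 and 263 CPM on GW3965 and 175, 158 and 198 on the standard diet. The samples did not overlap, but the change of 0.43 (SE 0.14, FDR = 0.226) did not pass. *Sdhc* (0.41, SE 0.14), *Sdhd* (0.43, SE 0.21) and *Sdha* (0.23, SE 0.22) did not pass either. *Cox4i1* (0.34, SE 0.16) and *Ndufa1* (0.07, SE 0.17) are the most abundant nuclear members of their complexes, and neither passed. *Ndufa4l2* (-1.34, SE 0.88), *Cox6b2* (-0.66, SE 0.47) and *Cox4i2* (-0.34, SE 0.55) had changes of the opposite sign that did not pass.

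Other pathway genes had mostly positive changes on GW3965 at day 22, with 0 called by edgeR. All 21 TCA cycle genes had positive changes, with a median of 0.38. At an unadjusted p under 0.05, 11 were higher, beside 5.21% of all genes. DESeq2 called 3, beside 172 genes higher of the 16070 to which it gave an FDR. The median was 0.23 for assembly factors, 0.18 for fatty acid oxidation and 0.16 for glycolysis, with 0 called by edgeR in each. Of 12 differentiated colonocyte markers, 11 had negative changes with a median of -0.32 and 0 called, and their sums of 1709 to 3054 CPM on GW3965 and 2145 to 3997 on the standard diet overlapped. The sums of general epithelium, leukocyte and smooth muscle markers overlapped between diets too. Those of adipocyte markers did not, at 18.6 to 59.7 CPM on GW3965 and 7.13 to 12.1 on the standard diet, nor those of enteric neurons and glia, at 43.6 to 49.4 and 50.7 to 89.2, with 0 genes called in either list. Their part in the result was not tested.

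The diet difference itself differed between day 22 and day 0 for the same pair of genes. The effect at day 22 minus that at day 0 was 1.06 (SE 0.17) for *Uqcrq* and 1.02 (SE 0.17) for *Ndufb6* (both FDR = 0.0423, edgeR), beside 0.0234% of all genes called. At an unadjusted p under 0.05, 54 of 91 nuclear members had a higher effect at day 22, beside 3.85% of all genes. DESeq2 called 14 members, beside 72 genes higher and 30 lower of all 17063. With each of the 26 samples left out in turn, 0 members were called in 14 fits, 1 in 4, 2 in 6 and 3 in 2. For the comparison at day 22 itself, 0 were called without standard day 22 replicate 1 or 2 or without GW3965 day 22 replicate 2 or 3, and 9 without standard day 43 replicate 1.

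At day 43 the diets did not separate at the threshold. No member was called by edgeR, beside 0.0293% of all genes, or by DESeq2, while 23 nuclear members had an unadjusted p under 0.05 for a higher level, beside 3.60% of all genes. The nuclear median was 0.27, and -0.03 without the ribosomal term. *Sdhc* (0.52, SE 0.15, FDR = 0.45) and *Atp5g1* (0.63, SE 0.19, FDR = 0.45) had the smallest p. All 13 mitochondrial genes had positive changes with a median of 0.42, and leaving out 1 sample gave 0.05 (without standard day 43 replicate 1) to 1.12 (without standard day 43 replicate 2). The effect at day 43 minus that at day 0 gave 0 calls among members and 0% of all genes by edgeR, with 22 members higher at an unadjusted p under 0.05 (350 of all 17063 genes) and 0 by DESeq2. *Atp5k* (0.75, SE 0.22, FDR = 0.994) and *Atp5g1* (0.73, SE 0.24, FDR = 0.994) were nearest.

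At day 70 no member was called between diets by edgeR, beside 1.83% of all genes, with 4 at an unadjusted p under 0.05 (3204 of all 17063 genes) and 3 called by DESeq2 (969 of all genes higher and 193 lower). The nuclear median was -0.10, with 71 negative changes of 91, and that of mitochondrial genes 0.22, which turned to -0.25 without GW3965 day 70 replicate 1. *Ndufc2* had the smallest p of the negative changes (-0.37, SE 0.13, FDR = 0.14). *Cox8b*, a muscle form of *Cox8a*, had 55.7, 0.258 and 0.459 CPM on GW3965 and 0.105, 1.00 and 0.423 on the standard diet. A single sample was high and the groups overlapped, although the change was 5.09 (SE 1.41, FDR = 0.062). Without GW3965 day 70 replicate 1 it was -0.49, and the effect at day 70 minus that at day 0 was -0.55. That sample, GW3965 replicate 1, also held the skeletal muscle markers, and the other 5 samples were all at 1.00 CPM or less. The effect at day 70 minus that at day 0 gave 0 calls among members and 0% of all genes by edgeR, with 1 member, *Cox8b*, at an unadjusted p under 0.05 (2169 of all 17063 genes) and called by DESeq2. *mt-Nd6* (1.09, SE 0.65, FDR = 0.494) came next.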

How the data were processed

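Colon RNA of 26 samples was sequenced by the authors (paired-end, poly(A) RNA) and quantified with Kallisto on GRCm38 cDNA, version and strand setting not given in the sources used here. The deposited values were estimated counts, not whole, and TPM per transcript for 119414 transcripts. Here 97.8% of transcripts were matched to Ensembl genes, estimated counts were summed per gene and rounded, and TPM was summed per gene to compare levels between genes. Unmatched transcripts held 0.615% to 0.999% of the counts and stayed out of library sizes. Tests used edgeR 4.0.16 (limma 3.58.1, R 4.3.3): TMM, filterByExpr, glmQLFit and glmQLFTest with 8 groups and the centred percentage of counts on 88 ribosomal protein genes, in place of the ribosomal RNA percentage that the authors used against RNA degradation. Their model with all interactions was an alternative. P-values were Benjamini–Hochberg adjusted over 17063 genes in each of 10 comparisons, with day comparisons averaged over diets. Shares and medians over members have no test. The p-values measure the spread between samples.

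The members and lists were chosen with earlier results of these data known. Named genes were the 13 mitochondrial genes, the *Sdh* genes, tissue isoform families, the most abundant nuclear gene of each complex and, for each comparison, at most 5 called members of smallest p in each direction, or the 2 of smallest p where none was called. Genes of the other lists were named by smallest p. *Atp5b*, *Atp5c1* and the copies were named after their values were seen. Some single-gene results are not reported here. Alternatives were RLE normalization, no filter, no ribosomal term, DESeq2 1.42.0, mitochondrial genes removed, a replicate block, untreated mice of the same diet duration and each sample left out. RIN as covariate and leaving out day 43 were added after seeing the data. The test script was tested on simulated data. Copies were searched with blastn 2.17.0 (at least 95% identity over 200 bases). Intervals of counts cover counting error only.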

Additional observations from a re-analysis of the deposited data

Results flagged for a closer look

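Among untreated mice on GW3965, 4 named genes had a sample far from the other 3 by Dixon's test. *mt-Co2* was lowest in replicate 2-22d, at 3990 CPM. *Sdhc* (237 CPM), *Atp5g1* (240 CPM) and *Atp5a1* (698 CPM) were all highest in replicate 1-22d. This was 4 of 78 tests, of 39 measures in the untreated group of each diet, and chance gives about 1 in 20. The tests share samples and are not independent, so that rate is only a rough guide.

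The GW3965 effect at day 22 exceeded that at day 0 by 1.055 on the log2 scale for *Uqcrq* and by 1.021 for *Ndufb6*, by the interaction test of edgeR (FDR = 0.0423 for each). In the nuclear share, all 3 standard diet samples of day 22 were below the mean of untreated mice of their diet and all 3 GW3965 samples above theirs. The mean share at day 22 minus that of untreated mice of the same diet was -0.293 percentage points on the standard diet and 0.353 on GW3965. That difference was not tested.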

How the results depend on the processing

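The count of called members depended on the ribosomal term. Without it, members called were 0 for GW3965 against standard at day 22 (2 in the reported fit), 1 at day 70 (0), 19 for day 22 against day 0 (10), 85 for day 43 against day 0 (0) and 0 for the GW3965 effect at day 22 minus that at day 0 (2). With RIN in its place they were 0, 1, 27, 70 and 0. Over all genes, 9 were higher and 4 lower without the term for GW3965 at day 22, and 497 and 27 at day 70. With RIN these were 16 and 12, and 885 and 141. For day 22 against day 0 they were 3225 and 2161 without the term and 3639 and 2786 with RIN. For day 43 against day 0 they were 6088 and 4930, and 4970 and 4033. The effect at day 22 minus that at day 0 had 0 in both fits. With a ribosomal slope in each group, the form of the authors’ model, they were 0 for GW3965 against standard at day 22, 0 for day 22 against day 0, 0 for day 70 against day 0 (54 in the reported fit) and 0 for the effect at day 22 minus that at day 0, each slope then resting on 3 or 4 samples. Over all genes that fit called 1 higher and 2 lower for GW3965 at day 22 and 2 and 2 for day 70. It called 0 of all genes for day 22 against day 0 and for the effect at day 22 minus that at day 0. *Cox6a2* at day 70 reversed to -8.17 with that slope. DESeq2 called 33 members for GW3965 at day 22, 3 at day 70, 18 for day 22 against day 0, 14 for the effect at day 22 minus that at day 0 and 1 for that at day 70. In that order, all genes called were 172 higher and 133 lower, 969 and 193, 2435 and 1793, 72 and 30, and 287 and 22. Without the filter on low counts the effect at day 22 minus that at day 0 gave 0 members and 0 of all genes. Leaving out day 43, chosen after seeing the data, gave 4 for GW3965 at day 22, beside 13 genes higher and 5 lower. Against untreated mice of the same diet duration, 4 were called for day 22, beside 1696 genes higher and 604 lower of all. RLE normalization and removal of mitochondrial genes changed no count by over 1.5 times.

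Replicate numbers did not pair the samples: over 13 pairs the correlation of deviations was -0.37 to 0.201, with 2 over 0.1. With the replicate number as a block, GW3965 at day 22 gave 0 called members, as did its effect at day 22 minus that at day 0, and no other comparison changed its count by over 1.5 times.

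With each sample left out in turn, members called ranged over 0 to 9 for GW3965 at day 22, 0 to 2 at day 43, 0 to 3 at day 70, 8 to 19 for day 22 against day 0, 0 to 1 at day 43, 47 to 60 at day 70, 0 to 3 for the effect at day 22 minus that at day 0 and 0 to 1 at day 70, with 0 to 0 for GW3965 at day 0 and for the effect at day 43. Of these, 19 was without standard day 43 replicate 1 and 18 without standard day 0 replicate 2-22d. For GW3965 at day 22, leaving out standard day 43 replicates 1, 2 and 3 gave 9, 4 and 6, and GW3965 day 70 replicates 1 and 2 gave 5 and 4. For the effect at day 22 minus that at day 0, 0 were called without standard day 22 replicates 1 or 2, standard day 0 replicates 1-22d, 1-43d or 2-43d, GW3965 day 22 replicates 2 or 3, GW3965 day 43 replicates 1 or 3, GW3965 day 0 replicates 2-22d, 1-43d or 2-43d, standard day 70 replicate 2 or GW3965 day 70 replicate 3. Leaving out standard day 43 replicate 2 turned the mitochondrial median at day 43 against day 0 to -0.44 (0.25 with it). The 3 at day 70 was without GW3965 day 70 replicate 3, and the 2 at day 43 without standard day 43 replicate 2. For the share of counts, log2 ratios of mitochondrial members ranged over 0.40 to 0.67 at day 22, -0.50 to -0.21 at day 43, -0.59 to -0.23 at day 70, and for GW3965 against standard over -0.57 to -0.16 at day 0, -0.48 to -0.03 at day 22, 0.20 to 1.15 at day 43 (1.15 without standard day 43 replicate 2) and -0.18 to 0.43 at day 70. Those of nuclear members ranged over -0.08 to 0.08, 0.37 to 0.48 and -0.44 to -0.35 for the days, and -0.07 to 0.02, 0.35 to 0.54, -0.13 to 0.14 and -0.30 to -0.17 for the diets.

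By TPM in place of counts, the log2 ratio of day 43 to day 0 was -0.87 for the mitochondrial share (-0.38 by counts) and 0.10 for the nuclear share (0.43). In promoters from 100 bases before the start, GGGCGG was in 31.6% and TATAAA in 3.80% of members. The cause of these shifts was not tested.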
